A study of Mus musculus with 8 samples.

Results

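The genes described here are the Toll-like receptors, their co-receptors, the adaptors and kinases that carry their signal, and the subunits and inhibitors of the transcription factor NF-kB. A list of 40 gene symbols was taken, and each was represented by the transcript cluster that carries that symbol and no other in the platform annotation, the brightest one over all arrays if a gene had several. Of the 40, 37 had such a cluster, 1 each, among 19938 genes represented in this way in the series. Tlr5, Irak4 and Nfkb1 had none and were not analysed here.

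Toll-like receptors recognise parts of microbes and, in injured tissue, molecules set free by dying cells. Those on the cell surface bind lipids and proteins, and those in endosomes bind nucleic acids. All but TLR3 signal through the adaptor MYD88, which assembles IRAK kinases and TRAF6, and these switch on the kinases that remove the IkB inhibitors from NF-kB, so that NF-kB enters the nucleus. In the brain, microglia, the resident macrophages, express most of these receptors, and NF-kB induces several of its own inhibitors, which end the signal.

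RNA came from the corpus callosum, a white matter tract, of male wild-type C57BL/6 mice. The cuprizone group was 4 mice fed 0.25% cuprizone, a copper chelator that harms oligodendrocytes, for 1 week, and the control group was 4 mice on normal diet. The labels give an age of 8 weeks for both groups, call the 4 arrays of a group biological replicates, and describe perfusion with saline before the tissue was dissected by hand, which removes most blood. One Affymetrix Mouse Gene 1.0 ST array was hybridised for each mouse. Values are log2 levels, so a difference of 1 is a doubling.

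Over 23410 clusters with a gene symbol, the arrays had medians of 7.44 to 7.49. On the first principal component, cuprizone replicate 2 scored 8.73 and the remaining cuprizone arrays 16.5 to 22.5, while control replicate 2 scored -13.2 and the remaining control arrays -18.6 to -18.1. The replicate 2 arrays thus lay nearest to the opposite group. Of the tissue's markers, the oligodendrocyte list fell in 8 of 8 genes and the microglial list rose in 14 of 19. Of 9 astrocyte markers 4 were higher (Gfap 0.96, Sox9 0.43, Aldh1l1 0.32 and Slc1a3 0.32) and 2 were lower (Slc1a2 -0.60 and Gja1 -0.43). None of 9 neutrophil and none of 9 lymphocyte markers passed the threshold by limma, with 0 and 1 of them at an unadjusted p under 0.05. In bulk tissue, fewer or more cells of a type and less or more RNA per cell cannot be told apart.

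After 1 week of cuprizone, 14 of the 37 genes were higher and 0 were lower at a limma adjusted p under 0.05. Of all clusters tested 8.22% passed that threshold, 4.71% upward and 3.52% downward. An unadjusted limma p under 0.05, in either direction, was found for 20 of the 37 genes and for 4867 of the 23410 clusters. The 14 were 5 of 10 receptors, 5 of 5 co-receptors, 1 of 11 adaptors and kinases, 2 of 4 NF-kB subunits and 1 of 7 inhibitors. The changes were modest, with 7 of the 14 at or above 1.5-fold, which 1.4% of all clusters reached upward. Without cuprizone replicate 2 and control replicate 2, a choice made after the values were seen, 14 genes were called higher, with Cd14 lost (limma adjusted p = 0.0988) and Tlr3 gained (0.0189).

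The median log2 fold change was 0.43 over the receptors, 0.67 over the co-receptors, 0.08 over the adaptors and kinases, 0.29 over the NF-kB subunits and 0.11 over the inhibitors, against -0.0074 over all clusters tested. All 15 measured receptors and co-receptors had a difference above 0. In 17 of the 37 genes every cuprizone array lay above every control array, an arrangement seen in 8.24% of all clusters, and in 0 did every cuprizone array lie below every control array, as in 7.09% of all clusters. It held for 7 receptors, 4 co-receptors, 3 adaptors and kinases, 2 subunits and 1 inhibitor, and the plot of fold changes by role shows where the changes lay.

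**Figure D1:**
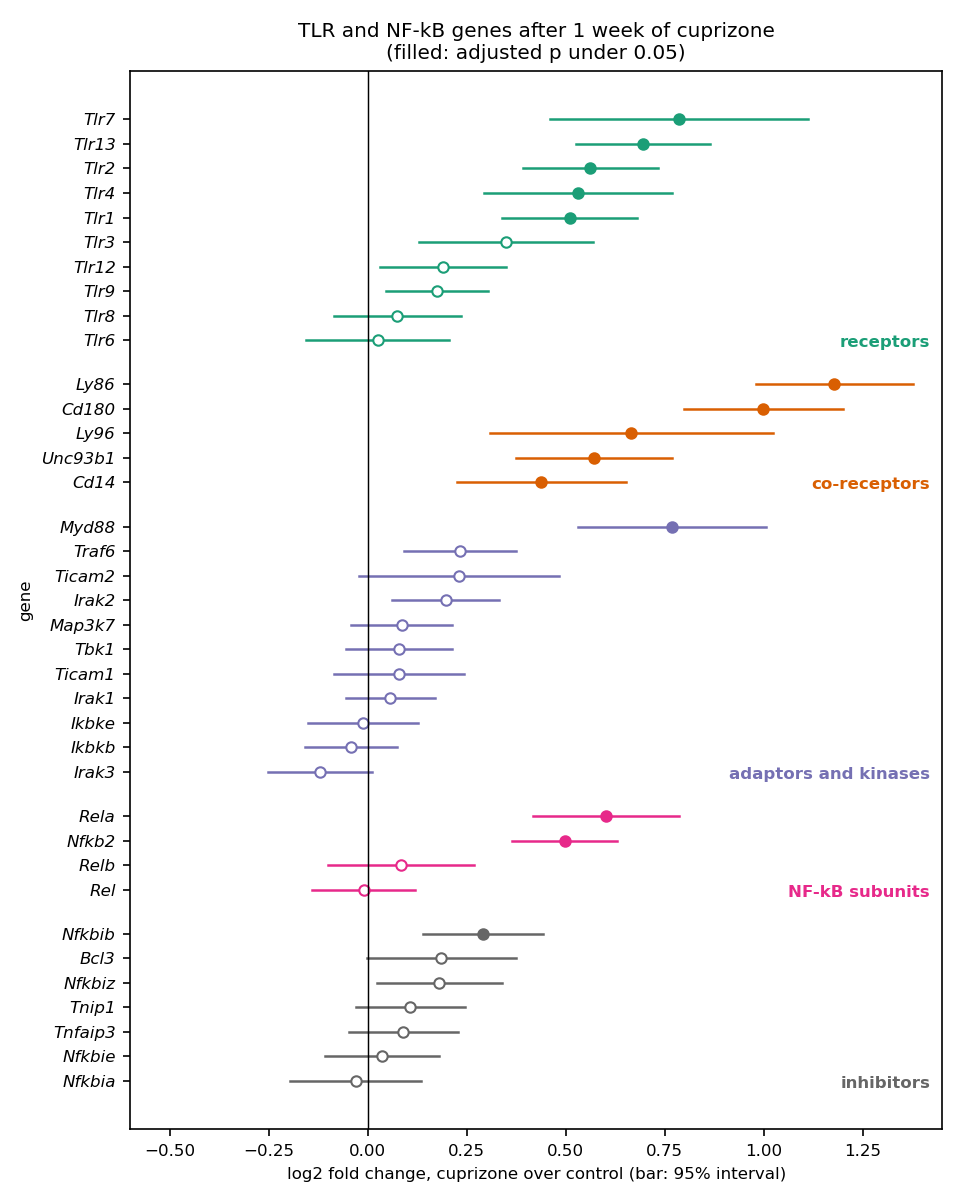
Log2 fold change of each gene, cuprizone over control (horizontal axis), with its 95% interval from limma, grouped by role and sorted within each role. Filled points are the 14 genes past the threshold: Ly86 stands furthest right at 1.18 and Irak3 furthest left at -0.12.

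The largest changes were those of Ly86 and Cd180. Ly86 (transcript cluster 10404606), which encodes the small secreted protein that binds the ectodomain of CD180, had levels of 10.30, 10.31, 10.62 and 10.30 on cuprizone arrays 1 to 4, against 9.01, 9.33, 9.24 and 9.24 on control arrays 1 to 4. The groups were far apart, and the change was 2.26-fold (log2 fold change 1.18 ± 0.09, SE, limma adjusted p = 2.03e-05). Cd180 (10406928), a receptor of B cells and macrophages built like TLR4 but without its signalling domain, had 8.11, 8.20, 8.53 and 8.19 on cuprizone arrays, against 7.31, 7.35, 7.27 and 7.11 on control arrays. It rose 2.00-fold (1.00 ± 0.09, limma adjusted p = 6.68e-05), again without overlap. Both genes of this receptor complex were highest on cuprizone replicate 3.

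The other co-receptors rose less. Unc93b1 (10460237), the chaperone that takes nucleic acid receptors from the endoplasmic reticulum to endosomes, had 8.29, 8.16, 8.60 and 8.23 with cuprizone, against 7.78, 7.81, 7.75 and 7.66 in controls, and rose by 0.57 ± 0.09 (limma adjusted p = 0.00237). Ly96 (10344966), whose protein sits on TLR4 and holds the lipid of lipopolysaccharide, had 6.50, 5.96, 6.86 and 6.41 with cuprizone, against 5.62, 6.06, 5.70 and 5.69 in controls. Cuprizone replicate 2 thus lay below control replicate 2, and Ly96 was the only called gene of the 14 whose groups overlapped (0.67 ± 0.16, limma adjusted p = 0.0282). Cd14 (10458382), which hands lipopolysaccharide to that complex, had 6.02, 6.34, 6.24 and 6.08 with cuprizone, against 5.62, 5.66, 5.65 and 5.99 in controls, where replicate 4 stood close to the cuprizone arrays (0.44 ± 0.10, limma adjusted p = 0.0168).

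Only 3 co-receptors were called without cuprizone replicate 3, control replicate 1 or control replicate 3, when Cd14 (limma adjusted p = 0.0553, 0.0551 and 0.0520) and Ly96 (0.0621, 0.0820 and 0.0739) missed the threshold. Cd14 also missed it without control replicate 2 (0.0508) and Ly96 without cuprizone replicate 1 (0.0710) or 4 (0.0624) or control replicate 4 (0.0783), and over all alternatives the adjusted p ran from 0.00475 to 0.0988 for Cd14 and from 0.000935 to 0.147 for Ly96.

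Of the receptors of the cell surface, Tlr2, Tlr1 and Tlr4 rose and Tlr6 did not pass the test. Tlr2 (10498992), the receptor of bacterial lipopeptides, had 7.70, 7.63, 7.71 and 7.38 with cuprizone, against 6.99, 7.05, 6.99 and 7.14 in controls, and rose 1.48-fold (0.56 ± 0.08, limma adjusted p = 0.00101). Tlr1 (10530145), a partner of TLR2, had 6.04, 5.99, 5.99 and 5.77 with cuprizone, against 5.30, 5.51, 5.40 and 5.55 in controls (0.51 ± 0.08, limma adjusted p = 0.00190). Neither gene overlapped between the groups, and cuprizone replicate 4 was the lowest cuprizone array for both. Tlr6 (10530151), which encodes the other partner of TLR2, had 5.59, 5.58, 5.57 and 5.53 with cuprizone, against 5.70, 5.68, 5.33 and 5.46 in controls, so that the cuprizone values lay inside the control range (0.02, 95% interval -0.16 to 0.21).

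Tlr1 and Tlr6 are neighbours on chromosome 5 with no gene between them in the RefSeq table. Within an array, Tlr1 minus Tlr6 lay between 0.24 and 0.45 with cuprizone, against -0.41 to 0.09 in controls. This pair was set side by side after the values were seen, and the sequences of these receptors are alike enough that cross-hybridisation, which was not tested, could blur the pair. Tlr4 (10505517), the receptor of lipopolysaccharide, had 5.70, 5.46, 5.76 and 5.74 with cuprizone, against 4.88, 5.41, 5.18 and 5.07 in controls. It rose by 0.53 ± 0.11 (limma adjusted p = 0.0108), and only cuprizone replicate 2 and control replicate 2 came close to each other.

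The 250 bases before the RefSeq start of Tlr2 (GRCm38.p6, minus strand, chr3:83841609-83841858) are shown because Tlr2 was 1 of only 2 called genes whose promoter window held the NF-kB consensus. The sequence runs 5′ to 3′ on the gene's strand, and capitals mark overlapping matches to the consensus. A further match crosses the start itself.
Tlr2: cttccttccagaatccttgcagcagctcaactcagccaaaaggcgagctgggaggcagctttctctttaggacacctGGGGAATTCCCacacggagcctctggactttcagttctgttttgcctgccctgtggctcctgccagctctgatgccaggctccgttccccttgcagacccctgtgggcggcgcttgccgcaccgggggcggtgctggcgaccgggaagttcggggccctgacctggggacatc

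Among the receptors of endosomes, Tlr7 and Tlr13 rose. Tlr7 (10607870), which binds single-stranded RNA, had 6.44, 6.24, 6.82 and 6.99 with cuprizone, against 5.63, 5.97, 5.81 and 5.93 in controls. It had the largest receptor change, 1.72-fold (0.79 ± 0.15, limma adjusted p = 0.00704), and also the widest spread among cuprizone arrays of any receptor. Tlr13 (10601385), a receptor of bacterial ribosomal RNA, had 6.64, 6.71, 6.82 and 6.88 with cuprizone, against 6.10, 6.02, 5.93 and 6.22 in controls, and rose 1.62-fold (0.70 ± 0.08, limma adjusted p = 0.000238). Tlr8 (10607868), next to Tlr7 on the X chromosome with no gene between them, had 4.40, 4.54, 4.72 and 4.42 with cuprizone, against 4.44, 4.45, 4.42 and 4.46 in controls. Its groups overlapped (0.07, 95% interval -0.09 to 0.23). Tlr8 was dim, with a control mean of 4.44, and its signal over background was not examined. Tlr7 minus Tlr8 within an array was 1.70 to 2.57 with cuprizone and 1.19 to 1.52 in controls, again a pair chosen after the values were seen.

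Tlr3, Tlr9 and Tlr12 missed the threshold. Tlr3 (10578493), the receptor of double-stranded RNA, had 8.05, 7.51, 7.91 and 7.72 with cuprizone, against 7.40, 7.43, 7.51 and 7.44 in controls. The lowest cuprizone array, replicate 2, was barely above the highest control array, and Tlr3 was not called (0.35 ± 0.10, limma adjusted p = 0.0571). Leaving that array out gave 0.00604, in a range of 0.00604 to 0.173 over the alternatives. Tlr9 (10588479), the receptor of unmethylated CpG DNA, had 7.68, 7.58, 7.68 and 7.50 with cuprizone, against 7.45, 7.44, 7.48 and 7.38 in controls (0.17 ± 0.06, limma adjusted p = 0.105). Its cuprizone arrays were all above its control arrays, by a small margin. Tlr12 (10516518), a receptor of a protozoan profilin, differed by 0.19 ± 0.07 with overlapping groups (limma adjusted p = 0.149).

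Of the 11 measured adaptors and kinases on the list, Myd88 rose and the other 10 did not pass the test. Myd88 (10597648) had 8.42, 7.93, 8.47 and 8.14 with cuprizone, against 7.52, 7.52, 7.42 and 7.43 in controls. All cuprizone arrays were higher, replicates 1 and 3 most and replicate 2 least, and the change was 1.70-fold (0.77 ± 0.11, limma adjusted p = 0.00111). Ticam1 (10452022), the adaptor of TLR3 and of TLR4 in endosomes, had 7.48, 7.56, 7.40 and 7.22 with cuprizone, against 7.28, 7.30, 7.37 and 7.40 in controls (0.08, 95% interval -0.09 to 0.24). The control arrays lay inside the cuprizone range, and the upper limit of the interval was below a 1.5-fold change. Ticam2 (10458816), which bridges TLR4 to that adaptor, had 7.01, 7.33, 6.99 and 6.65 with cuprizone, against 6.75, 6.78, 6.75 and 6.79 in controls. Replicate 4 was below every control and the other cuprizone arrays were above them (0.23 ± 0.11, limma adjusted p = 0.287), and without that array the adjusted p was 0.0377, in a range of 0.0377 to 0.609.

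The promoter of Myd88 (GRCm38.p6, minus strand, chr9:119340019-119340268) is shown since, of the called genes with a promoter window, it alone held the core of the interferon-stimulated response element, which is GAAA, any 2 bases and GAAA, given in capitals (either strand). Of all genes with a window, 3.99% held that core, and among the other genes of the list it was found in Tlr6.
Myd88: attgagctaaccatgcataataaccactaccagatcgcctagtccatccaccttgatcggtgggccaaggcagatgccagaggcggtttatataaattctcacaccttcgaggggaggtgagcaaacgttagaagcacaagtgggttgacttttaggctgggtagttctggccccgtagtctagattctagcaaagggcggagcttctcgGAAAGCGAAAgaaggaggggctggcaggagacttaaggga

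None of the kinases among the 11 listed genes, nor the ligase Traf6, passed the threshold. Traf6 (10474112), the ligase that links MYD88 to the IkB kinases, had 8.45, 8.69, 8.67 and 8.60 with cuprizone, against 8.36, 8.39, 8.43 and 8.31 in controls. The groups did not overlap, but Traf6 was not called (0.23 ± 0.06, limma adjusted p = 0.0515). With cuprizone replicate 1 left out the adjusted p was 0.0192, in a range of 0.0192 to 0.194. Irak2 (10540795), a kinase of the MYD88 assembly, was higher by 0.20 ± 0.06 with no overlap (limma adjusted p = 0.0802). Irak3 (10372781), an inhibitory member of the IRAK family, had 6.67, 6.61, 6.77 and 6.54 with cuprizone, against 6.76, 6.79, 6.74 and 6.78 in controls (-0.12, 95% interval -0.25 to 0.01).

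Irak1, the TRAF6-activated kinase Map3k7, the IkB kinase Ikbkb, and the kinases of interferon regulatory factors Tbk1 and Ikbke had log2 fold changes of 0.06, 0.09, -0.04, 0.08 and -0.01. Their groups overlapped in every case. The upper limits of their 95% intervals were 0.17, 0.21, 0.07, 0.21 and 0.13, all below a 1.5-fold change.

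NF-kB is a dimer of subunits, of which RELA carries most of the fast response and NFKB2 is the precursor of the slower, noncanonical pathway. Rela (10460631) had 9.10, 9.25, 9.34 and 9.25 with cuprizone, against 8.64, 8.86, 8.51 and 8.53 in controls, and rose 1.52-fold (0.60 ± 0.08, limma adjusted p = 0.00109). Nfkb2 (10463599) had 7.43, 7.39, 7.46 and 7.27 with cuprizone, against 6.85, 6.97, 6.85 and 6.89 in controls, a rise of 0.50 ± 0.06 (limma adjusted p = 0.000420). In both genes the groups were apart, and control replicate 2 was the highest control array. Rel (10384725), a subunit prominent in lymphoid and myeloid cells, had 8.09, 7.87, 8.01 and 7.94 with cuprizone, against 8.01, 7.97, 8.02 and 7.95 in controls. The control arrays lay inside the cuprizone range (-0.01, 95% interval -0.14 to 0.12). Relb (10560575), the partner of processed NFKB2, differed by 0.08 with overlapping groups (95% interval -0.10 to 0.27). The dots for these genes stand in the plot of levels by array.

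Of the 7 inhibitors 1 passed the test, with the smallest change among the 14 called genes. Nfkbib (10561516), which encodes IkB beta, had 9.97, 9.92, 9.95 and 10.04 with cuprizone, against 9.61, 9.82, 9.54 and 9.75 in controls. It was the inhibitor called (0.29 ± 0.07, limma adjusted p = 0.0237), with no overlap. It missed the threshold without cuprizone replicate 1 (limma adjusted p = 0.0570), 3 (0.0546) or 4 (0.0639) and without control replicate 1 (0.0712) or 3 (0.0651), so that no inhibitor was then called, and its range over the alternatives was 0.0102 to 0.0717.

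Nfkbia and Tnfaip3 are among the feedback inhibitors that NF-kB itself induces within hours. Nfkbia (10400405), IkB alpha, had 8.75, 8.85, 9.03 and 8.87 with cuprizone, against 8.77, 8.87, 8.97 and 9.01 in controls. The control arrays again lay inside the cuprizone range (-0.03, 95% interval -0.20 to 0.13). Tnfaip3 (10368144), a ubiquitin-editing enzyme, had 6.72, 6.59, 6.59 and 6.63 with cuprizone, against 6.57, 6.63, 6.41 and 6.55 in controls (0.09, 95% interval -0.05 to 0.23). Tnip1 (10385941), which binds that enzyme, had 7.84, 7.93, 7.93 and 7.81 with cuprizone, against 7.75, 7.66, 7.78 and 7.89 in controls (0.11, 95% interval -0.03 to 0.25). All 3 sets overlapped, and the upper interval limits were below 1.5-fold, whereas the intervals of Rela and Nfkb2 began at 0.42 and 0.36.

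The remaining inhibitors were not called. The atypical IkB proteins NFKBIZ and BCL3 act on NF-kB in the nucleus. Nfkbiz (10439936) had 7.25, 6.94, 7.11 and 7.01 with cuprizone, against 6.87, 6.98, 6.84 and 6.90 in controls (0.18 ± 0.07, limma adjusted p = 0.172). Bcl3 (10560685) had 7.69, 7.51, 7.63 and 7.32 with cuprizone, against 7.39, 7.38, 7.20 and 7.43 in controls (0.19 ± 0.09, limma adjusted p = 0.251). In each of these, 1 cuprizone array lay inside the control range. Nfkbie, IkB epsilon, differed by 0.04 (95% interval -0.11 to 0.18).

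The NF-kB consensus (exact matches on either strand, overlapping matches counted as 1 site) was searched in RefSeq windows of 250 bases before to 50 after each annotated start, build GRCm38.p6. Of the 37 genes, 28 had a window, and 10 of these held the consensus, against 5.14% of all genes with a window. They were Tlr2, Tlr3, Map3k7, Nfkb2, Rel, Nfkbia, Nfkbie, Bcl3, Tnfaip3 and Tnip1. Of the 9 called genes with a window 2 held it, Tlr2 and Nfkb2, and 8 of the 10 genes that held it were not called. A match is a description of the sequence and not a site of binding.

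The promoters of 4 genes are set side by side, 250 bases before the start and 5′ to 3′, with the consensus in capitals. The genes are Nfkb2, which was called, and Nfkbia, Tnfaip3 and Tnip1, which were not. Their positions are chr19:46304487-46304736 (plus strand) for Nfkb2, chr12:55492648-55492897 (minus strand) for Nfkbia, chr10:19015411-19015660 (minus strand) for Tnfaip3 and chr11:54962941-54963190 (minus strand) for Tnip1. Nfkb2 has 3 annotated starts and Tnfaip3 has 2, and the first in the table is shown for each.
Nfkb2: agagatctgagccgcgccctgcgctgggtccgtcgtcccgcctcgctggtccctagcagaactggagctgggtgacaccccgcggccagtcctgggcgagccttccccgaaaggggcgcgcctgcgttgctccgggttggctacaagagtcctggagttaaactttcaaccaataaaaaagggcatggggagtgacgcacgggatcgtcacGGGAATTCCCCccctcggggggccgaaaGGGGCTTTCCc
Nfkbia: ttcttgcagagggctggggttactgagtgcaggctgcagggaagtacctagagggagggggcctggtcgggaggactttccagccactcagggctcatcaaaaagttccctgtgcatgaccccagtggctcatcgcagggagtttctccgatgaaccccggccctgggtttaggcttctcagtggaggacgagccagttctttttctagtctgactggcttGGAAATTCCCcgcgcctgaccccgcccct
Tnfaip3: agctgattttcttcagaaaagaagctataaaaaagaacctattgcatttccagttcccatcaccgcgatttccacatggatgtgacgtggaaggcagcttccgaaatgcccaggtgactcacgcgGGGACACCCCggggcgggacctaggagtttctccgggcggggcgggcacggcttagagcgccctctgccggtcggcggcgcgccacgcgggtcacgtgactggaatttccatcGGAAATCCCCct
Tnip1: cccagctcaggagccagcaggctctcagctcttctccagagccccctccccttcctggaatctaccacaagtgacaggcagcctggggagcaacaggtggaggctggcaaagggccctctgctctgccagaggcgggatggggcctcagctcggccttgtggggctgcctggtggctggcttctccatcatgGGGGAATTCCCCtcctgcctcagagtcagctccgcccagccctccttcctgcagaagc
Nfkb2 and Tnfaip3 each hold 2 runs of capitals, and Nfkbia and Tnip1 hold 1 each. The closest to the start is that of Nfkb2, which ends 2 bases before it.

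**Figure D2:**
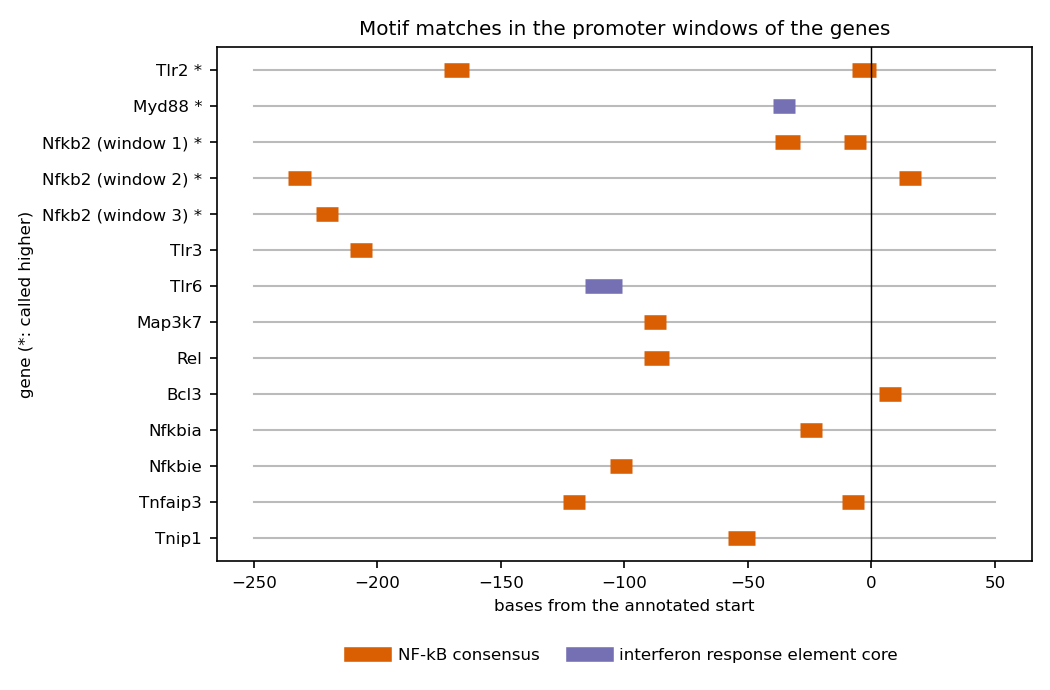
Positions of the NF-kB consensus (orange) and of the interferon response element core (purple) in the promoter windows that hold either, in bases from the annotated start (horizontal axis), with the called genes, marked with a star, above those not called. Nfkb2 has 3 windows that overlap in part, so 1 site appears in windows 2 and 3, and 8 of the 10 genes with the NF-kB consensus were not called.

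A motif that ETS factors such as PU.1 bind, AGGAAG, was more common. It was found in 13 of the 28 genes with a window and in 4 of the 9 called ones, Tlr1, Tlr2, Tlr13 and Ly86, where 38.4% of all genes with a window held it.

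Other genes of the pathway were counted from a list of 50, of which 46 had a cluster. Of these 6 were higher and 1 was lower, against 4.71% and 3.52% of all clusters tested, with a median log2 fold change of 0.05. Pik3ap1, an adaptor of phosphoinositide kinase that tempers TLR signals, had 8.24, 7.85, 8.46 and 7.93 with cuprizone, against 7.28, 7.47, 7.28 and 7.44 in controls (0.75 ± 0.12, limma adjusted p = 0.00291). Map3k8, the kinase that NFKB1 holds in check, had 7.33, 7.34, 7.41 and 7.23 with cuprizone, against 6.96, 7.00, 7.00 and 7.04 in controls (0.33 ± 0.06, limma adjusted p = 0.00373). Irf5, a transcription factor that MYD88 activates, rose by 0.33 ± 0.07 (limma adjusted p = 0.0139). Rnf31, a ubiquitin ligase of the linear chain complex, named after its value was seen as the remaining call, rose by 0.27 ± 0.06 (limma adjusted p = 0.0186). Each of the 4 was without overlap.

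Otud7b, a deubiquitinase that restrains the noncanonical pathway, was the 1 that fell. It had 7.37, 7.64, 7.52 and 7.26 with cuprizone, against 8.02, 7.83, 7.83 and 7.95 in controls (-0.46 ± 0.09, limma adjusted p = 0.00621). Irf7 and Usp18 also rose, by 1.46 ± 0.30 (limma adjusted p = 0.0111) and 2.00 ± 0.44 (limma adjusted p = 0.0171). Both are interferon-induced and also stand in the interferon-response list. Irf7 had 8.53, 7.01, 8.65 and 7.65 with cuprizone, against 6.27, 6.62, 6.55 and 6.56 in controls. Usp18 had 9.02, 6.70, 9.27 and 7.85 with cuprizone, against 6.20, 6.31, 6.23 and 6.09 in controls. Both differed widely among the cuprizone arrays, where replicate 2 was lowest.

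Genes known as targets of NF-kB were split. Of 40 listed, 38 had a cluster, and 10 of these rose and 0 fell, with a median of 0.12. Among all clusters tested, 4.71% were called higher and 3.52% lower. Gadd45b, a stress-induced growth arrest gene, had 9.72, 10.04, 9.75 and 9.77 with cuprizone, against 8.18, 8.59, 8.41 and 8.16 in controls (1.49 ± 0.11, limma adjusted p = 1.21e-05). Ccl3, a chemokine gene, had 9.05, 9.85, 9.57 and 9.35 with cuprizone, against 6.51, 7.25, 6.37 and 6.31 in controls (2.85 ± 0.21, limma adjusted p = 1.63e-05). The cytokine gene Il1a rose by 1.14 ± 0.09, the adhesion molecule gene Vcam1 by 0.72 ± 0.08, the chemokine gene Ccl5 by 1.07 ± 0.16 and the immediate early gene Ier3 by 0.38 ± 0.07 (limma adjusted p = 2.11e-05, 0.000229, 0.00140 and 0.00587). All 6 were without overlap. Named after their values were seen, the other 4 that rose were the cytokine gene Il1b (0.49 ± 0.10, limma adjusted p = 0.0140), the chemokine gene Ccl2 (0.81 ± 0.16, 0.0108), the costimulatory gene Cd80 (0.51 ± 0.10, 0.00714) and the apoptosis inhibitor gene Cflar (0.31 ± 0.08, 0.0468). These are genes with several known inducers besides NF-kB. Cd80 had 2 clusters and Cflar 3, and neither was called on its least bright cluster.

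The other targets, 28 in all, did not pass the threshold. Picked after their values were seen, Tnf differed by 0.10 (95% interval -0.09 to 0.29), Cxcl1 by -0.00047 (-0.16 to 0.16), Cxcl2 by 0.16 (-0.08 to 0.39) and Icam1 by 0.36 (0.12 to 0.60, limma adjusted p = 0.0704). The first 3 are a cytokine and chemokines that NF-kB induces early, as it does Il1b and Ccl2, which rose, and their intervals ended below 1.5-fold. Tnf and Cxcl2 were dim, with control means of 5.63 and 4.55. So were Il1a (4.82) and Il1b (5.38), which rose, and the uncalled Il6 (3.32). Signal over background was not examined. The largest uncalled difference was that of Lcn2 (0.85, 95% interval 0.23 to 1.47, limma adjusted p = 0.0989), with overlapping groups. Without overlap, Il6 (0.24), Csf1 (0.23) and, by a very small margin, Icam1 were higher and Mmp9 (-0.14) was lower, none of them called. Groups without overlap were seen upward in 8.24% and downward in 7.09% of all clusters.

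The genes did not follow 1 order over the cuprizone arrays. Of the 14 called genes 9 were highest on cuprizone replicate 3, among them Ly86, Ly96, Cd180, Unc93b1, Myd88 and Rela, and 3 were highest on replicate 4 (Tlr7, Tlr13 and Nfkbib). Of all clusters called higher 53.9% were highest on replicate 3, and of all clusters tested 26.5%. The co-receptor mean lay 1.03 above the control mean on replicate 3 and 0.65 to 0.70 above it on the others, and the microglial mean lay 0.69 above it on replicate 3 and 0.37 to 0.52 on the others.

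Tlr3, Tlr12, Rel and Nfkbiz, none of them called, had the order of the interferon-response list, whose mean stood 2.24, 0.58, 2.16 and 1.31 above control on cuprizone replicates 1 to 4. That order was found in 2.79% of all clusters and in 8.53% of those called higher. In Myd88, Ly96, Unc93b1 and the uncalled Tbk1 the order differed from it only in that replicate 3 was above replicate 1. The share of all clusters with this second order was not counted. Of the clusters called higher, 53.9% were highest on replicate 3. A link of Myd88, Ly96, Unc93b1 and Tbk1 to the interferon list was not tested.

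Markers of microglia were higher too. On cuprizone replicates 1 to 4 the receptor mean lay 0.42, 0.29, 0.48 and 0.37 above the control mean. The microglial mean lay 0.37, 0.45, 0.69 and 0.52 above its own. Of 19 microglial markers measured, 14 rose and none fell, with a median log2 fold change of 0.51. Their mean lay 0.37 to 0.69 above the control mean with cuprizone, against -0.09 to 0.09 in controls. The mean level of the list was 8.37 to 8.68 with cuprizone and 7.91 to 8.08 in controls, and their part in the receptor changes was not tested. Tyrobp (0.94), Ptprc (0.99), C1qb (1.14), Csf1r (0.61), Laptm5 (0.67) and Cd68 (0.89) were the 6 with the smallest p. Named after their values were seen, the 5 not called were P2ry12 (-0.06), P2ry13 (-0.05), Siglech (0.05), Cx3cr1 (0.27) and Gpr34 (0.31). The groups of Gpr34 did not overlap. Tmem119 (0.28) and Sall1 (0.25), also named after the values were seen, were called higher. Markers of border macrophages, with 0 of 8 called and 0 at an unadjusted p under 0.05, had means of -0.06 to 0.04 with cuprizone and -0.02 to 0.02 in controls, and those of neutrophils -0.08 to 0.07 with cuprizone and -0.07 to 0.09 in controls. Of 9 markers of monocytes and dendritic cells 1 was called, Itgax (0.92), which activated microglia also express.

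RNA quality was not examined here. Genes of cytosolic ribosomal proteins had a median log2 fold change of 0.19, with 3 of 14 higher and none lower. Their mean lay 0.15 to 0.32 above the control mean with cuprizone, against -0.05 to 0.08 in controls, and was highest on replicate 3. That is about the size of the changes of Nfkbib, which was called, and of Traf6, Irak2, Tlr9, Tlr12, Nfkbiz and Bcl3, and below those of the called receptors, and its part in them was not tested.

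**Figure D3:**
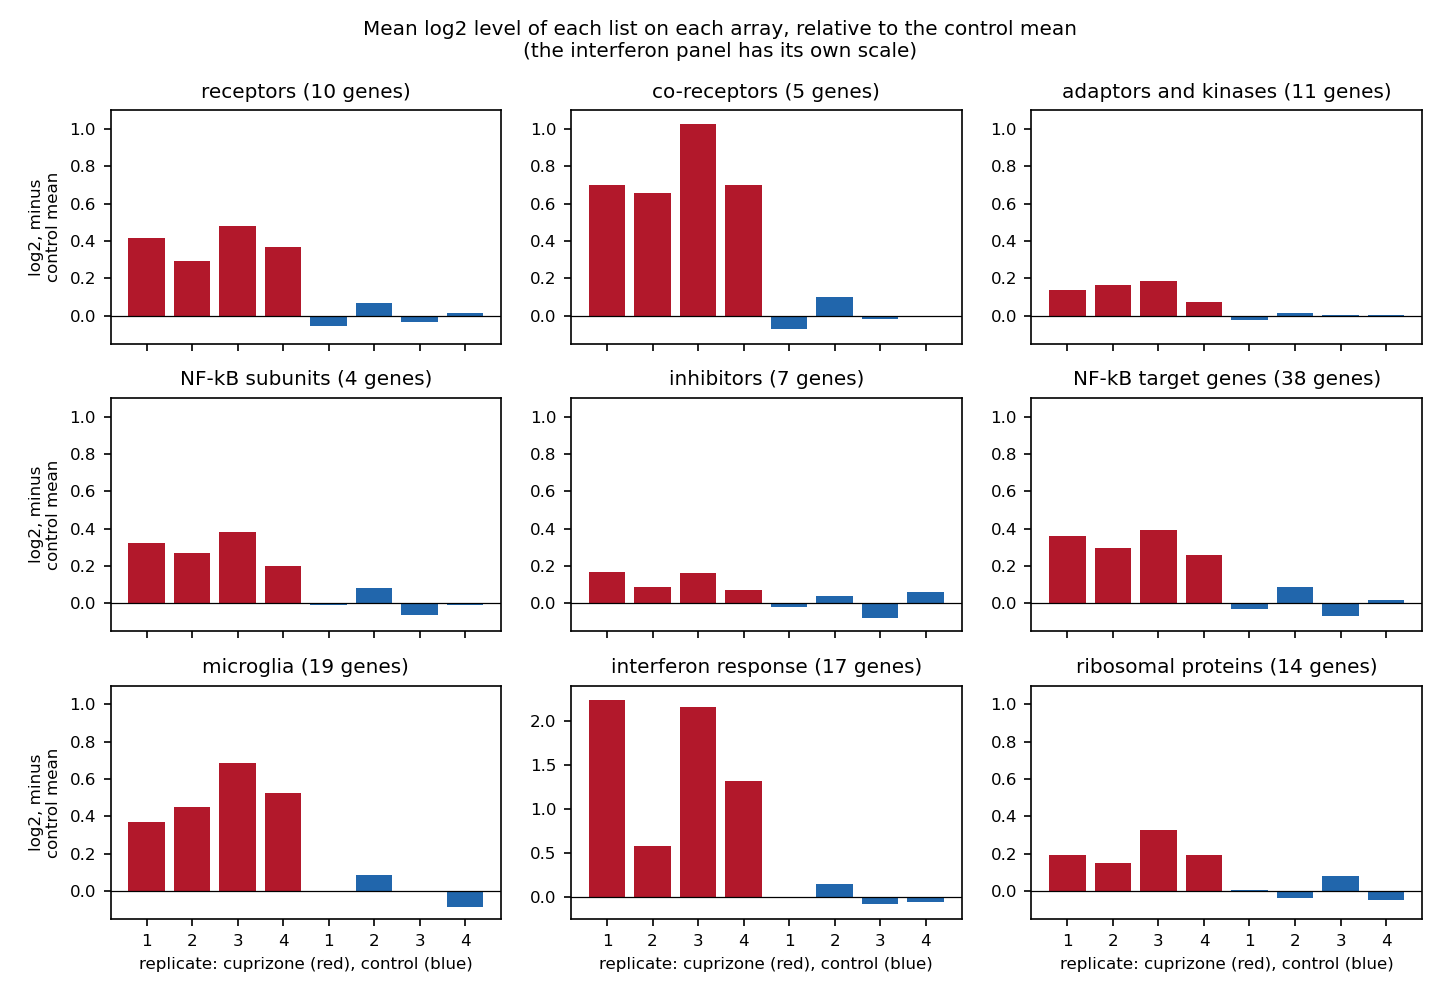
Mean log2 level of each gene list on each array, as the difference from the control mean (vertical axis), with cuprizone replicates 1 to 4 in red and control replicates 1 to 4 in blue. The co-receptors reach 1.03 on cuprizone replicate 3, the inhibitors stay at 0.07 to 0.17 with cuprizone, and the interferon list, on its own scale, ranges from 0.58 to 2.24.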

How the data were processed

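Total RNA, 150 ng per mouse, was labelled and hybridised to Affymetrix Mouse Gene 1.0 ST arrays, per the labels' protocols. The authors deposited log2 levels of transcript clusters. Expression Console, RMA and Transcriptome Analysis Console are named in the submitters' processing notes, without versions or roles. RMA summarises probes after quantile normalization, which hides a shift common to most genes and compresses large folds. The genome build of the array annotation is not given in the sources used here. Detection calls and scan dates were not used here, so signal over background and batch are not known, and the number of arrays limits the precision.

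The table held 28944 clusters, of which 21789 had 1 gene symbol, 1621 several and 5534 none in the platform annotation. The 37 genes matched RefSeq by Entrez identifier and symbol. The 23410 clusters with a symbol were tested with limma 3.58.1 in R 4.3.3 (2 groups, no covariate, moderated variances, two-sided), with Benjamini-Hochberg adjustment over all of them and a threshold of 0.05. Errors after ± are standard errors, and intervals are 95% intervals from limma. The code was tested on simulated data. The members and gene lists were chosen with earlier results of these data known, so the counts are descriptive. Named were all members and, of the other lists, up to 6 called genes with the smallest p. Sequences came from RefSeq, and motif matches allowed 0 mismatches. Alternatives were other variance models, normalizations, filters, thresholds, clusters, array weights, a replicate block and leaving out arrays.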

Additional observations from a re-analysis of the deposited data

Results flagged for a closer look

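In 4 of the 74 groups of 4 arrays examined (37 genes, 2 diets each), 1 array stood apart from the other three by more than Dixon's 95% critical value allows, which chance gives in about 1 group in 20. The Ly86 level of cuprizone replicate 3 was 10.62, with the rest of its group at 10.30 to 10.31. For Tlr1, cuprizone replicate 4 was low at 5.77 while its group mates had 5.99 to 6.04. Among controls, Cd14 was high in replicate 4 (5.99, the rest 5.62 to 5.66) and Nfkbie was low in replicate 3 (6.16, the rest 6.37 to 6.39).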

How the results depend on the processing

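Of the 14 genes called, 9 passed an adjusted p of 0.05 in every alternative in which they were tested, and Tlr4, Tlr7, Cd14, Ly96 and Nfkbib did not. Of those 9, Tlr1, Tlr2, Unc93b1 and Nfkb2 were below 1.5-fold. Of the 23 not called, 18 stayed so in all, and Tlr3, Tlr9, Ticam2, Irak2 and Traf6 passed in some. No gene of the 37 that was called in the fit or in an alternative changed sign between them. Leaving out 1 array gave 11 to 15 called genes, with 5 to 6 receptors, 3 to 5 co-receptors, 1 to 2 adaptors and kinases and 0 to 1 inhibitors. An ordinary test without moderation called 632 clusters and 9 of the 37 genes higher, with 3 receptors, 3 co-receptors and 0 inhibitors, and in the other lists 3 pathway genes higher, 0 lower and 6 NF-kB targets. A change of at least 1.5-fold left 328 clusters higher and 213 lower, and 7 of the 37 genes, with 2 receptors, 3 co-receptors, 1 subunit, 0 inhibitors, 3 other pathway genes higher, 0 lower and 6 targets. With clusters above the median level only, fewer genes were tested, 17 of the 37. Both receptors tested were then called (2, Tlr3 and Tlr9), while the 5 called over all clusters were not among those tested, and 3 co-receptors of 3, 3 adaptors and kinases of 7, 1 subunit of 2, 2 other pathway genes of 31 and 4 targets of 12 were called. Traf6 was a second adaptor or kinase called, making 2, when the prior variance followed the level and was robust, after quantile normalization again and with 1 cluster per gene. Taking the least bright cluster changed nothing for the 37 genes, which had 1 each, and gave 7 other pathway genes and 8 targets higher, against 6 and 10. Replicate numbers did not pair the arrays: deviations of same-numbered arrays correlated at -0.186, -0.0246, 0.21 and -0.0646. With the replicate block 13 genes were called higher, without Ly96 (adjusted p = 0.0736), and 892 clusters higher and 636 lower. How far each level stood above background was not examined, which limits what small changes of dim clusters show.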
